A study of Saccharomyces cerevisiae with 232 samples.

Results

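The pus7D strain of Saccharomyces cerevisiae lacks Pus7, one of the enzymes that turn uridine into its isomer pseudouridine in RNA. Its libraries were the 3 that the labels give the pus7D strain, 2 of ribosome footprints and 1 of RNA, and they were compared with the wild type that the authors processed in the same set, 6 footprint and 4 RNA libraries. These 13 samples are 5.60% of the series and hold 5 of its 67 RNA libraries. The series profiled wild type and strains lacking tRNA modification genes by ribosome profiling, which sequences the stretch of mRNA covered by a ribosome, and by RNA sequencing. Wild type was BY4741, a haploid laboratory strain of mating type a that carries his3Δ1, leu2Δ0, met15Δ0 and ura3Δ0, and pus7D was BY4741 with PUS7 replaced by the kanMX cassette. All 13 samples were grown in YPD medium at 30 °C to an optical density of 0.5 to 0.6, and the labels give all of them 100 µg/mL of the elongation inhibitor cycloheximide for 30 s. The pus7D strain is given as a single line, with no plasmid that restores PUS7, and nothing in the labels ties its libraries to separate cultures. The p-values below therefore measure only the spread between libraries, which may be technical.

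Pus7 acts alone, without a guide RNA, on uridines in a short sequence written UNUAA or UNUAG, in which the middle uridine is modified. Its known sites are the middle anticodon base of tyrosine tRNA (position 35), made while the tRNA still holds its intron, position 13 in the D arm of several tRNAs, U2 small nuclear RNA, 5S ribosomal RNA and some mRNAs. Tyrosine tRNA reads the codons UAU and UAC.

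The tRNA genes of the RefSeq R64 genome, the build also called sacCer3, were searched for this motif because known sites of Pus7 lie in tRNAs and the codon values below are described by the tRNAs that read them. Of 275 nuclear tRNA genes, 274 could be given an anticodon, in 41 anticodon families. The motif lay with the third base at position 35 in 1 family, tyrosine tRNA, in all 8 of its genes, each with an intron. It lay with the third base at position 13 in 12 families and 95 genes, which carry aspartate (15 of 16 genes), glutamate, glutamine, histidine, the glycine anticodons GCC and UCC, both proline anticodons, and the valine anticodons AAC and CAC. Position 35 was taken as the middle base of the anticodon, its number by convention (base 37 in SUP4 counted from the 5′ end), and position 13 was counted from 1 at the 5′ end. A match is a description of the letters, not a measured modification. In the genes below, written 5′ to 3′ as DNA, capitals mark the motif or, in tRNA-Gly-CCC, the same 5 positions without it. The tyrosine tRNA gene SUP4 is shown with its 14-base intron, and U2 by its first 60 bases, where the motif has the third base at position 35. Further matches, left in lower case, have the third base at base 22 of SUP4, at base 8 of the glutamate and glutamine genes and at base 56 of U2.
tRNA-Tyr, chrX:542956-543044, minus strand: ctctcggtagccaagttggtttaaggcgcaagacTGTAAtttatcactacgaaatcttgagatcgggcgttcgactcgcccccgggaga
tRNA-Asp-GUC, chrII:405960-406031, plus strand: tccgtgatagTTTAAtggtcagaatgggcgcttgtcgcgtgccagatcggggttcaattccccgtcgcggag
tRNA-Gly-UCC, chrVII:779616-779687, plus strand: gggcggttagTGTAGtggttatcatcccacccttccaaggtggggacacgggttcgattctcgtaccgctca
tRNA-Pro-AGG, chrIII:123577-123648, minus strand: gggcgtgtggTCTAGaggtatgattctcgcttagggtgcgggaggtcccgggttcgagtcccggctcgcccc
tRNA-Val-AAC, chrV:438700-438773, plus strand: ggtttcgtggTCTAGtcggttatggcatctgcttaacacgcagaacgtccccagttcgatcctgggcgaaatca
tRNA-Glu-UUC, chrII:645167-645238, plus strand: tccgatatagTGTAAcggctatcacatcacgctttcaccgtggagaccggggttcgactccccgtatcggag
tRNA-Gln-CUG, chrXIII:808246-808317, minus strand: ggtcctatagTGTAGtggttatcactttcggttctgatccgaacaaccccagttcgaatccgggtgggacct
tRNA-Gly-CCC, chrIV:1257008-1257079, minus strand: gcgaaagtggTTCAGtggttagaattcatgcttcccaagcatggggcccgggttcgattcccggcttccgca
U2 snRNA, chrII:681803-681862, minus strand: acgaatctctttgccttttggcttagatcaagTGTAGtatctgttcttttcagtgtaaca

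Footprint libraries held 4.64 to 11.7 M mapped reads in wild type and 4.91 and 9.81 M in pus7D, and RNA libraries held 11.8 to 13.3 M in wild type and 14.1 M in pus7D. These depths were recovered from the steps of the deposited RPKM values, reads per kilobase of gene scaled to library size, of which 96.3 to 97.9% of the low values came out as whole reads within 0.1 reads. PUS7, on chromosome XV (790211-792241), had a footprint level of 75.0 to 82.5 RPKM with a median of 78.2 in wild type and of 2.00 and 0.301 RPKM in pus7D. Its RNA level was 75.4 to 79.8 RPKM in the 4 wild-type libraries and 0.069 RPKM in pus7D. The deleted gene was thus down to 2.54% and 0.382% of the wild-type footprint mean in the pus7D libraries and to 0.0885% in the RNA. Of its neighbours, SSP2 was near 0 in footprints everywhere, at most 0.212 RPKM in wild type and 0.183 and 0.365 RPKM in pus7D. ESA1, the acetyltransferase gene on the other side, had 14.2 to 17.8 RPKM in wild type and 20.4 RPKM in both pus7D libraries. Its log2 change was 0.35 (SE 0.095, adjusted p = 0.015), which did not pass the test without pus7D library 1 or library 2. In RNA both neighbours lay outside the range of the 4 wild-type libraries, with 1 pus7D library and no test. SSP2 RNA was 3.062 to 4.196 RPKM in wild type and 0.947 RPKM in pus7D, a log2 difference of -1.16. ESA1 RNA was 26.73 to 30.56 RPKM in wild type and 39.107 RPKM in pus7D, a log2 difference of 0.48.

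Mating type a was seen in all libraries. The 5 a-cell genes MFA1, MFA2, STE2, STE6 and BAR1 together had 1421 to 1804 footprint RPKM in wild type and 1375 and 1485 in pus7D, while the 2 alpha-cell genes MF(ALPHA)1 and STE3 together had at most 1.99 RPKM in wild type and 1.14 in pus7D. LEU2 and URA3 were listed at 0 in every footprint library of both strains. HIS3, of which the his3Δ1 allele keeps part, had 96.5 to 108 RPKM in wild type and 161 and 169 RPKM in pus7D. MET17, the gene also named MET15 that makes homocysteine in methionine synthesis, went against the label of the pus7D strain. Its footprint level was listed at 0 in 4 wild-type libraries and at 0.509 and 7.75 RPKM in the other two, and at 541 and 521 RPKM in pus7D. Its RNA level was 0.19 to 0.626 RPKM in wild type and 311.9 RPKM in pus7D. In none of the 125 other footprint libraries made with cycloheximide was MET17 over 100 RPKM, and the highest had 7.75 RPKM, and the 6 made without it were not looked at. Among the 66 other RNA libraries it was over 100 RPKM in 2, those labelled rit1D (311 RPKM) and kti11D (154.6 RPKM), whose 4 footprint libraries had at most 0.411 RPKM. The pus7D libraries thus carry an expressed MET17 beside the loss of PUS7, and for every change below the pair cannot be told apart from these samples.

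The largest codon change was at the tyrosine codon UAU. The authors' values give, for each of 61 codons in the A, P and E sites of the ribosome, where tRNAs enter, hold the growing chain and leave, the log2 of the codon's frequency in footprints relative to wild type. At the A site, UAU stood at 0.25 and 0.28 in the pus7D libraries and between -0.024 and 0.021 in the 6 wild-type libraries. UAC stood at 0.098 and 0.15 in pus7D and between -0.011 and 0.0082 in wild type. Both pus7D libraries lay above all wild-type libraries at both codons. The changes were 0.26 for UAU (SE 0.018, adjusted p = 3.5e-10) and 0.13 for UAC (SE 0.021, adjusted p = 0.00022, a frequency 9.07% higher), and UAU at the A site was the largest of all 183 codon and site values in size. The wild-type libraries fell into 2 sets in the codon values, 1 to 3 and 4 to 6. Across values r was 0.12 to 0.472 within a set and -0.686 to -0.276 between. The values are relative to wild type, so the 6 wild-type values of a codon lie around 0, which by itself pushes r between these libraries below 0. The difference between the libraries numbered 1 and 2 followed the split of wild type in all 11 deletion strains (r = 0.149 to 0.729). Set against wild-type libraries 1 to 3, pus7D library 1 was 0.26 higher at UAU and 0.10 at UAC, and set against libraries 4 to 6, library 2 was 0.26 and 0.15 higher. In the P site, where the tRNA has already decoded, UAU was at 0.069 (SE 0.028, adjusted p = 0.135) and UAC at 0.056 (SE 0.022, adjusted p = 0.135), and in the E site at 0.018 and -0.014, none of which passed the test.

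In all, 18 of 183 values passed the test (9.84%), 10 higher and 8 lower. Of the 20 codons read by a tRNA family with the motif at position 13, 10 passed at the P site, against 1 of the 39 codons of neither kind, and 4 of the 10 passed in every fit that left out 1 library. At the A site, 2 of these 20 and 2 of the 39 passed, and at the E site 1 and 0. The members did not move one way. GGA, read by glycine tRNA UCC, stood at 0.20 and 0.24 in the P site of pus7D against -0.021 to 0.013 in wild type, a change of 0.22 (SE 0.026, adjusted p = 2.9e-06). CCC, read by proline tRNA AGG, stood at -0.19 and -0.20 against -0.018 to 0.031 in wild type, a change of -0.20 (SE 0.024, adjusted p = 3.3e-06). The aspartate codons GAU and GAC were lower in the P site, with changes of -0.15 (SE 0.020, adjusted p = 9.8e-06) and -0.14 (SE 0.020, adjusted p = 3.85e-05). In the A site these aspartate codons had -0.037 (adjusted p = 0.41) and -0.028 (adjusted p = 0.34), and in the E site GAC rose by 0.044 (SE 0.014, adjusted p = 0.043) and GAU had 0.060 (adjusted p = 0.11). The valine codons GUC and GUU, read by valine tRNA AAC, rose in the P site by 0.096 (SE 0.021) and 0.10 (SE 0.024), the glycine codons GGC and GGG by 0.095 (SE 0.021) and 0.10 (SE 0.028), and the glutamate codons GAA and GAG by 0.075 (SE 0.019) and 0.069 (SE 0.021). GGG is also read by glycine tRNA CCC, which lacks the motif. The pus1D strain of the set, which lacks PUS1, had PUS7 footprints of 86.7 RPKM in both libraries. Its P-site values were 0.088 and 0.048 for GGC, 0.14 and 0.026 for GGG, 0.043 and 0.056 for GAA, and 0.069 and 0.029 for GAG. None of these differed from pus7D by limma (adjusted p = 0.53 to 0.78), while the other called P-site codons among the 20 did. For the valine codons pus1D itself was low, at -0.489 and -0.555 for GUC and -0.346 and -0.440 for GUU. In other deletion strains, P-site values reached 0.21 for GUC, 0.21 for GUU and 0.145 for GGG, above both pus7D libraries. They also reached 0.126 for GAA and 0.124 for GAG, above both, and -0.251 for CCC, below both. For GGC the highest was 0.088, above pus7D library 2. Both pus7D libraries lay outside these strains for GGA (highest 0.0995), GAU (lowest -0.12) and GAC (lowest -0.096). Whether the motif accounts for the P-site calls was not tested. In the A site the glutamine codons fell, with changes of -0.15 for CAG (SE 0.028, adjusted p = 0.00077) and -0.064 for CAA (SE 0.019, adjusted p = 0.033). The 3 called values outside these families were CUG (leucine) and UCG (serine) in the A site, at -0.081 and -0.075, and ACC (threonine) in the P site, at -0.058. In each of the 8 fits that left out 1 library, 7 values passed throughout, namely UAU, UAC and CAG in the A site and GGA, CCC, GAU and GAC in the P site. Without pus7D library 1, 7 values passed in all, and without library 2, 10. The codon plot by amino acid shows the changes with the wild-type range of each codon.

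**Figure D1:**
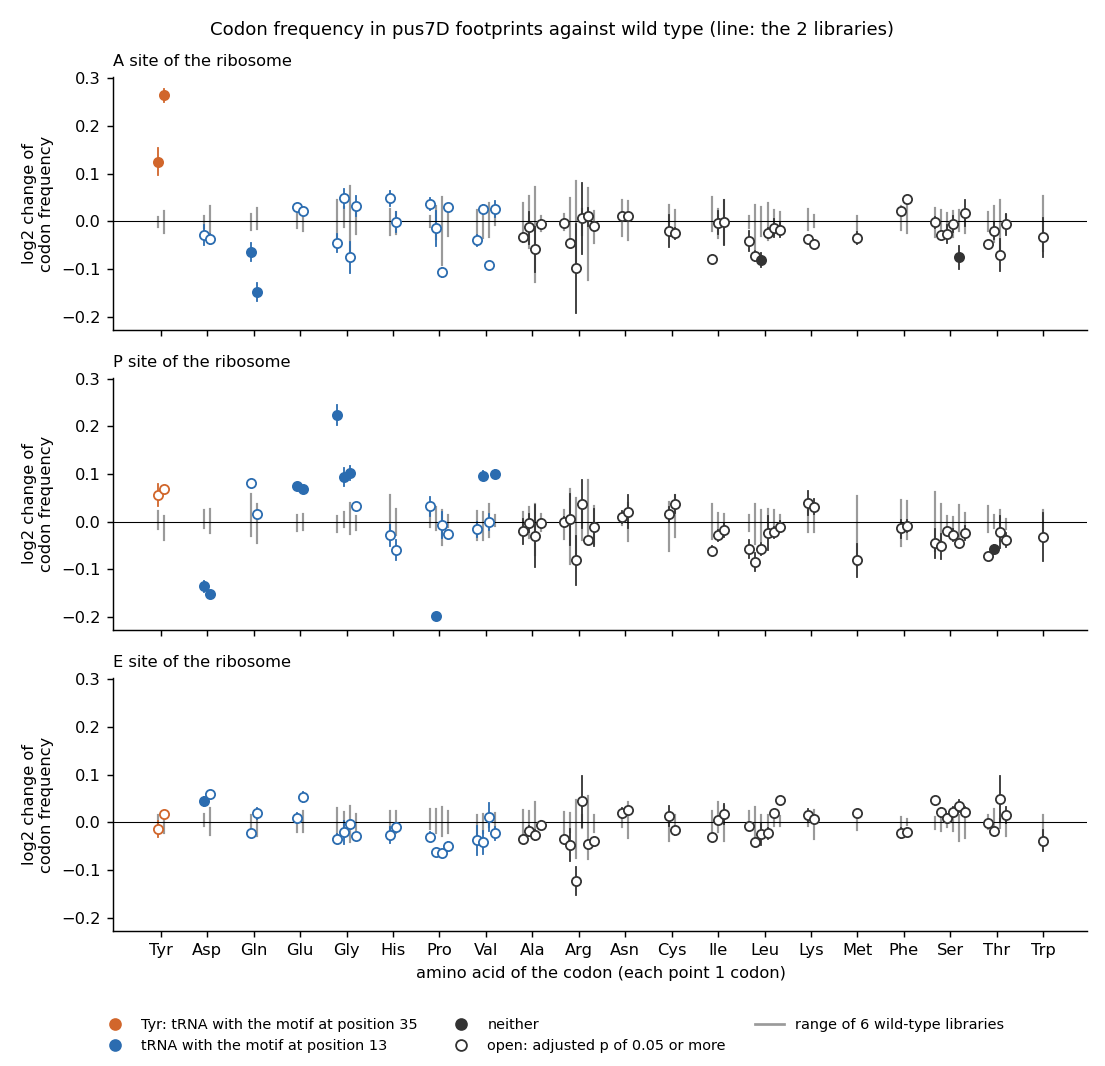
Log2 change of codon frequency in the A, P and E sites for the 61 codons, grouped by amino acid; points are the mean of 2 pus7D libraries, coloured lines join the 2, grey lines span the 6 wild-type libraries, and filled points passed the test. Tyrosine codons stand highest in the A site (0.26 and 0.13), and 10 of the 20 codons of tRNAs with the motif at position 13 are filled in the P site.

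Across genes, 4300 genes, those averaging 10 RPKM or more over the set's footprint libraries, were tested with limma on log2(RPKM + 1), and fold changes on this scale understate the change of low genes. In pus7D 309 genes were higher (7.19%) and 306 lower (7.12%), 615 in all (14.3%), at an adjusted p under 0.05. Most changes were small: the median size among the called was 0.28 on the log2 scale, and 19 genes were at least 2-fold higher and 5 at least 2-fold lower. Both pus7D libraries were above all 6 wild-type libraries for 304 of the 309 higher genes and below all 6 for all but 4 of the 306 lower genes. These genes were called on the same libraries, so this count is no separate check of the calls. The share over all 4300 genes is not given here. Fewer genes passed with 1 pus7D library, 3.14% higher and 3.70% lower without library 1, and 3.12% higher and 3.47% lower without library 2. All levels are relative to the library's mapped reads, and in these bulk samples fewer cells of a kind and less RNA per cell cannot be told apart.

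GCN4, which encodes the activator of many amino acid synthesis genes and whose message carries short upstream reading frames that hold back its translation, was the gene whose footprints and RNA parted most. Its footprint level was 25.8 RPKM at the lowest, 29.7 at the median and 31.9 at the highest in wild type, and 135.1 and 149.5 RPKM in pus7D. Both pus7D libraries stood far above every wild-type library. The change was 2.24 on the log2 scale (SE 0.096, adjusted p = 2.5e-13), 4.72-fold, and within the sets of libraries described above it was 2.18 and 2.30. Its RNA level was 596 to 638 RPKM in the 4 wild-type libraries and 769 RPKM in the 1 pus7D library, a log2 difference of 0.31 with no replicate. Footprints per RNA, the log2 footprint change less the log2 RNA change, were 1.93 higher, at 1.86 and 2.01 in the pus7D libraries. The authors' deposited table gives GCN4 a ratio of 3.63 and 4.01 over wild type in these libraries. In both assays 4228 genes averaged at least 10 RPKM over the wild-type and pus7D libraries together. Of these, 2 were at least 2-fold higher in footprints per RNA in this way (0.0473%) and 0 at least 2-fold lower (0.00%). The count was made without a test since pus7D has 1 RNA library. The gene beside GCN4 was SNZ1, at 1.36, with 1.04 and 1.67 in the pus7D libraries. SNZ1 footprints averaged 5.03 RPKM in wild type, so it met the filter only through pus7D. The authors' table holds no ratio for SNZ1.

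**Figure D2:**
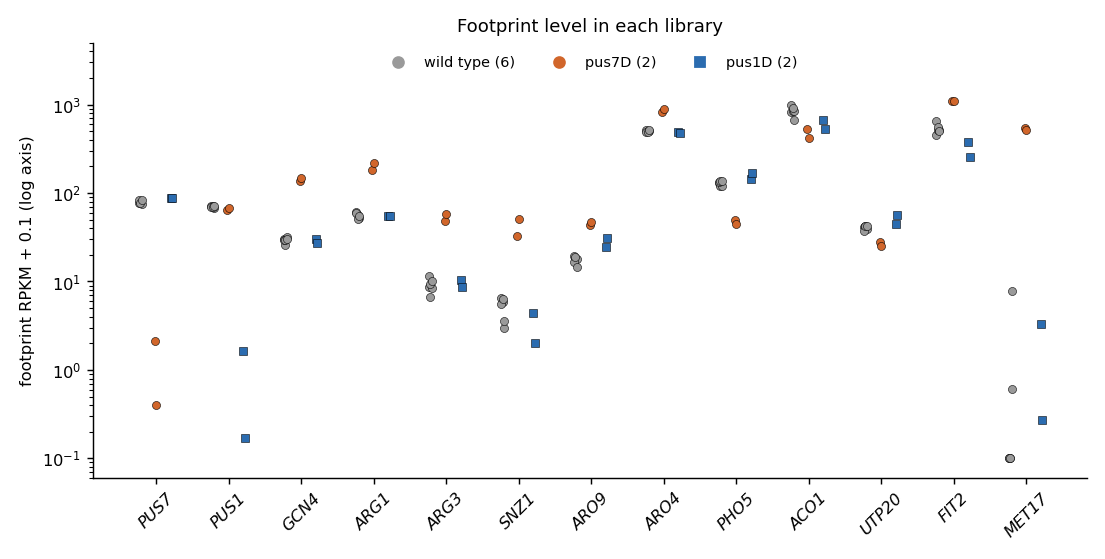
Footprint RPKM plus 0.1 on a log axis for 13 genes in each wild-type, pus7D and pus1D library. GCN4, ARG1, ARG3 and SNZ1 stand above wild type in both pus7D libraries and PHO5 and UTP20 below, and MET17 is above 500 RPKM in the pus7D libraries and below 10 RPKM in the others drawn.

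Most known targets of Gcn4 in amino acid synthesis rose in footprints. Of 42 measured list members 36 were higher, 0 lower and 6 did not pass, a share called of 85.7% beside 14.3% of all genes tested. The median log2 change was 0.44 beside 0.019 over all genes tested. In RNA 5 of 40 measured members were at least 2-fold higher and above the wild-type range, and the median difference was 0.45. Arginine synthesis genes led. ARG1, argininosuccinate synthetase, had footprints of 50.7 to 61.1 RPKM (median 55.3) in wild type and of 181 and 218 RPKM in pus7D, a change of 1.82 (SE 0.19, adjusted p = 3.6e-07). ARG1 RNA was 19.1 to 25.3 RPKM in wild type and 130.8 RPKM in pus7D, a log2 difference of 2.49. In footprints and RNA the pus7D libraries stood well above every wild-type library. ARG3, ornithine carbamoyltransferase, rose by 2.43 (SE 0.19, adjusted p = 6.7e-09) from 6.61 to 11.6 RPKM to 48.5 and 57.2 RPKM. ARG7, ARG5,6 and ARG4, further steps of the pathway, rose by 1.67 (SE 0.079), 1.52 (SE 0.12) and 1.36 (SE 0.11), while CPA1, the small subunit of carbamoyl phosphate synthetase, rose by 0.39 (SE 0.076, adjusted p = 0.00097). ARG8, acetylornithine aminotransferase, rose by 1.08 in footprints (SE 0.14, adjusted p = 1.1e-05) with an RNA difference of 0.32.

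The pair SNZ1 and SNO1, neighbouring genes of vitamin B6 metabolism, rose by 2.81 (SE 0.39, adjusted p = 2.2e-05) and 2.04 (SE 0.27, adjusted p = 9.6e-06). SNZ1 had 2.90 to 6.44 RPKM in wild type and 32.1 and 50.2 RPKM in pus7D. SNO1 was low in these libraries, at 0.32 to 2.28 RPKM in wild type and 6.04 and 10.3 RPKM in pus7D. It averaged 1.26 RPKM in wild type and 8.16 RPKM in pus7D, so it met the filter of 10 RPKM only through other strains of the set. SNZ1, ARG3 and YGL117W averaged 5.03, 9.05 and 5.32 RPKM in wild type. These 3 genes thus met the filter only through deletion strains. Genes of histidine and threonine synthesis moved less in fold and with small error, HIS4 by 0.89 (SE 0.052), HIS1 by 0.75 (SE 0.040) and HOM2 by 0.80 (SE 0.038). HIS3, which is listed with the strain markers above, rose by 0.68 (SE 0.066, adjusted p = 1.3e-07). TMT1, a methyltransferase of trans-aconitate, and YGL117W, a gene with no name, rose by 1.53 (SE 0.15) and 1.94 (SE 0.18).

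The letters TGACTC, the core of the Gcn4 binding site, were searched on both strands of the 300 bases before each start codon. They occurred before 341 of 4262 tested genes with such a window, before 28.8% of the 309 higher genes and before 5.61% of 303 lower genes. Among the 19 genes at least 2-fold higher, 12 held them. The stretches below come from R64 before ARG1, which rose, and before PHO5, which fell and is described further on. Capitals mark the match, which lies 274 bases before the start codon in ARG1. In PHO5 they mark CACGTG, the core site of the activator Pho4, 253 bases before the start codon.
ARG1 upstream, chrXV:218911-218979, plus strand: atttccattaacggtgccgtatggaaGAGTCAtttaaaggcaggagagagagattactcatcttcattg
PHO5 upstream, chrII:431162-431241, minus strand: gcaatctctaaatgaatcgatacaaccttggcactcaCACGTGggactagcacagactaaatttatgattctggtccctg

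**Figure D3:**
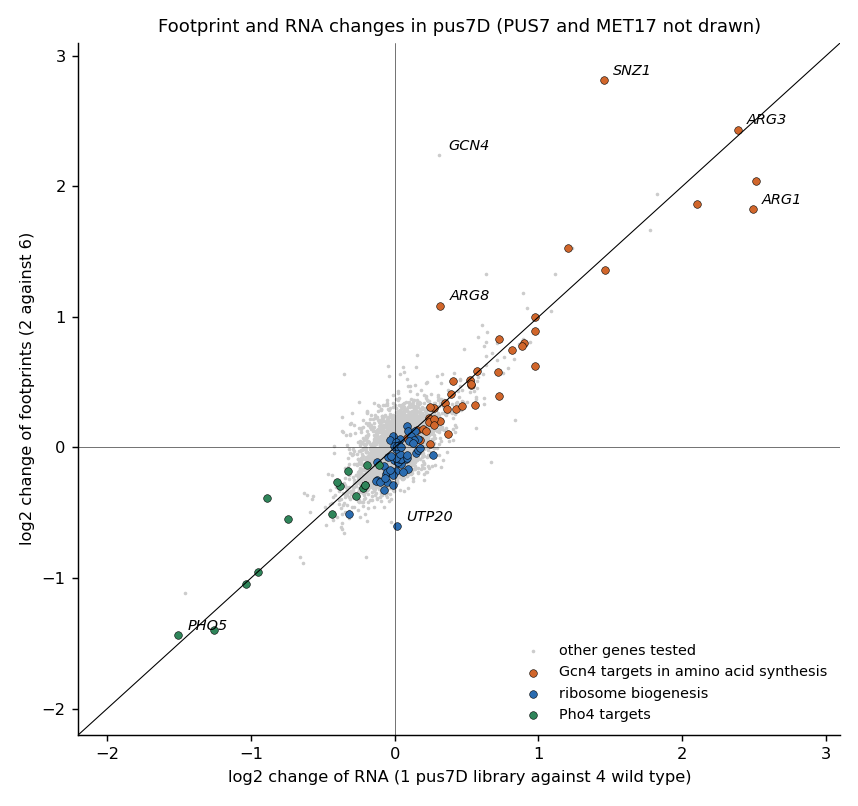
Log2 change of footprints (2 pus7D against 6 wild-type libraries) against log2 change of RNA (1 against 4) for genes tested, with 3 gene lists in colour and the line of equal change. GCN4 stands far above the line at 2.24 against 0.31, most Gcn4 targets lie along it, and ribosome biogenesis genes lie mostly below it.

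Genes of tyrosine and the other aromatic amino acids rose in 9 of 12 cases and fell in 0, with a median of 0.27. The share called was 75%, beside 14.3% of all genes tested. ARO3 and ARO4, the isozymes of the first step of the aromatic pathway, rose by 0.83 (SE 0.063, adjusted p = 3.4e-09) and 0.75 (SE 0.038, adjusted p = 4.4e-12), and both are also known Gcn4 targets. ARO4 had 487 to 521 RPKM (median 504) in wild type and 815 and 881 RPKM in pus7D. ARO1, ARO2 and ARO8 rose by 0.57 (SE 0.056), 0.21 (SE 0.039) and 0.33 (SE 0.052). The genes that break aromatic amino acids down, the aminotransferase ARO9 and the decarboxylase ARO10, both rose by 1.33 (SE 0.11 and 0.14, adjusted p = 9.6e-09 and 2.6e-07). ARO9 had 14.6 to 19.2 RPKM in wild type and 43.5 and 47.2 RPKM in pus7D, and its RNA difference of 0.64 was smaller than its footprint change. TYR1, prephenate dehydrogenase of tyrosine synthesis, rose by 0.21 (SE 0.053, adjusted p = 0.0076), and TYS1, the enzyme that charges tyrosine tRNA, by 0.15 (SE 0.033, adjusted p = 0.0039). Both of these calls were lost without pus7D library 1 (adjusted p = 0.092 and 0.058) or library 2 (adjusted p = 0.070 and 0.051), and that of TYS1 also with quantile normalization (adjusted p = 0.086). PHA2 (-0.14), TAT2, the tryptophan and tyrosine permease (0.07), and ARO7 (-0.01) did not pass, and the sign of ARO7 turned without pus7D library 2 (0.04).

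Of the other pseudouridine synthases and their partners 9 were measured. The test passed for 1, PUS9, a synthase of mitochondrial tRNAs, at -0.39 (SE 0.11, adjusted p = 0.022), which was lost without pus7D library 1 (adjusted p = 0.42). PUS1 had 68.3 to 71.5 RPKM in wild type and 64.4 and 67.1 RPKM in pus7D (-0.09, SE 0.17), with both pus7D libraries below all wild-type libraries. The fit shares its spread over all strains of the set, among them pus1D, where PUS1 is deleted and near 0. The SE of PUS1 is widened by these near-0 values, so its test cannot decide whether PUS1 changed. PUS3 (0.06), PUS4 (-0.06) and PUS8 (-0.17) did not pass, nor did the box H/ACA proteins CBF5 (0.02), NHP2 (0.13), GAR1 (-0.08) and NOP10 (0.17). The signs of PUS3 without pus7D library 2 and of CBF5 with quantile normalization were the opposite.

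**Figure D4:**
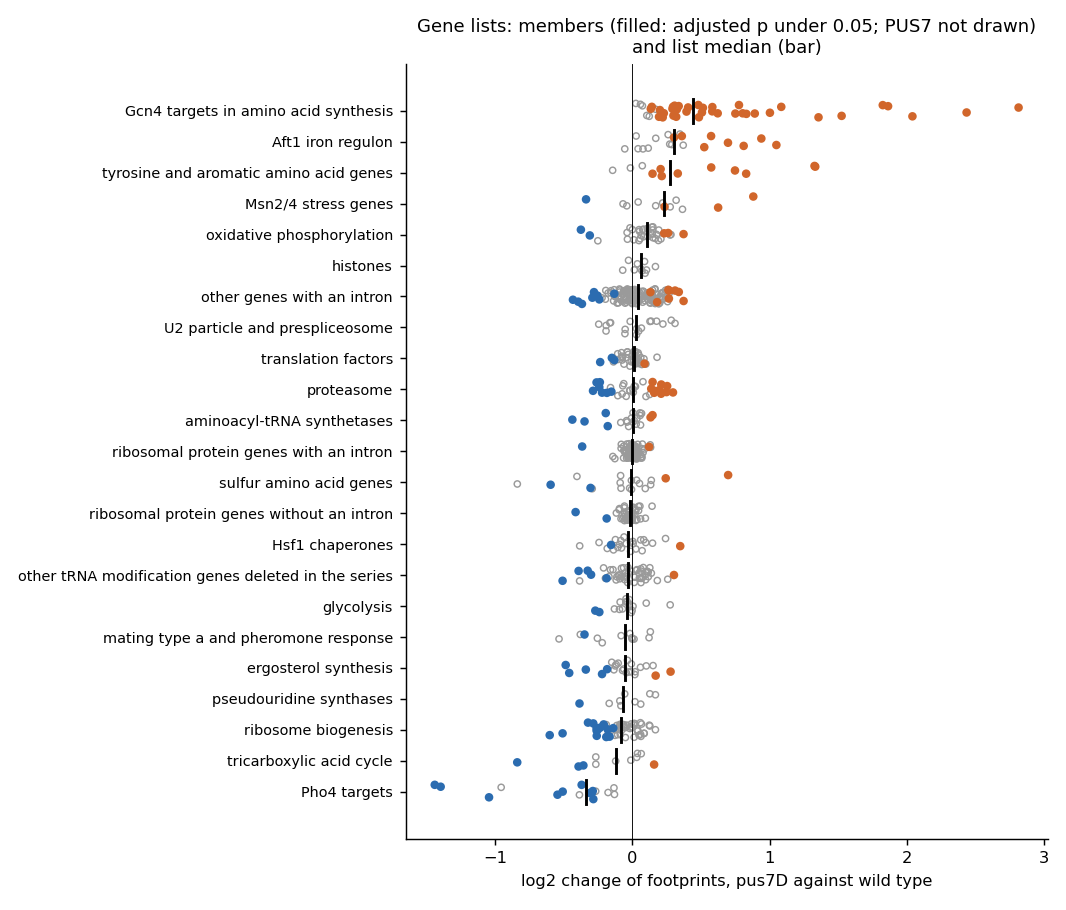
Log2 footprint changes of the members of 23 gene lists, pus7D against wild type; filled points passed the test and bars are list medians. Gcn4 targets have the highest median (0.44) and Pho4 targets the lowest (-0.34).

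Genes of phosphate starvation fell. Of 16 measured targets of Pho4, the activator of phosphate-regulated genes, 10 were lower, 0 higher and 6 did not pass, with a median of -0.34. The share called was 62.5%, beside 14.3% of all genes tested. PHO5, the main secreted acid phosphatase, had footprints of 120 to 137 RPKM (median 131.1) in wild type and of 50.0 and 44.2 RPKM in pus7D, and RNA of 125.9 to 146.7 RPKM in wild type and 48.1 RPKM in pus7D. The footprint change of PHO5 was -1.44 (SE 0.19, adjusted p = 9.1e-06). PHO12 had a change of -1.04 (SE 0.14, adjusted p = 1.2e-05) and PHO11 of -1.40 (SE 0.23, adjusted p = 0.00017), but their coding sequences are 99.7% identical over 100% of their length, so how uniquely mapped reads divide between them is uncertain. SPL2, a regulator of phosphate transport, had -0.55 (SE 0.079), and VTC3, a subunit of the polyphosphate polymerase, had -0.51 (SE 0.050). CACGTG occurred before 3.85% of all tested genes, before 3.63% of the lower genes and before 3 of the 5 genes at least 2-fold lower. The near-identical PHO11 and PHO12 are both among these 5. It also occurred before 2 of the 19 genes at least 2-fold higher (10.5%).

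The other large falls were in single genes of several functions. PTR2, the peptide transporter, fell by 1.12 (SE 0.20, adjusted p = 0.00038), from 46.3 to 86.5 RPKM to 37.5 and 27.0 RPKM. ACO1, aconitase of the tricarboxylic acid cycle, fell by 0.84 (SE 0.11, adjusted p = 8.1e-06), from 672 to 979 RPKM (median 844) to 525 and 423 RPKM. In that cycle 3 of 11 genes were lower and 1 higher (36.4% called, beside 14.3% of all), among them KGD2 at -0.39 (SE 0.048). GRX4, a glutaredoxin that acts in iron sensing, had a change of -0.66 (SE 0.077, adjusted p = 2.3e-06), and RRP40, a subunit of the RNA exosome, of -0.56 (SE 0.068, adjusted p = 3.9e-06).

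Of 54 ribosome biogenesis genes 15 were lower in footprints, 0 higher and 39 did not pass (27.8% called, beside 14.3% of all genes tested). The median was -0.08 in footprints and 0.02 in RNA. UTP20, a factor of small-subunit processing, had footprints of 36.9 to 42.4 RPKM (median 41.3) in wild type and of 28.1 and 24.8 RPKM in pus7D, while its RNA was 94.2 to 100 RPKM in wild type and 99.3 RPKM in pus7D. Both pus7D footprint libraries lay below all wild-type libraries and the RNA lay within the wild-type range. The footprint change of UTP20 was -0.60 (SE 0.079, adjusted p = 9.2e-06). NOP7 had a footprint change of -0.51 (SE 0.045, adjusted p = 3.8e-08) with an RNA difference of -0.32, and TSR1 of -0.32 (SE 0.047) with -0.07. In 40 of the 54 genes (74.1%) footprints per RNA were lower than in wild type in both pus7D libraries, beside 36.3% of all 4228 genes, and in 4 (7.41%) they were higher in both, beside 1397 of the 4228. The median over the list was -0.12 and -0.094 in the pus7D libraries. These values rest on 1 RNA library and carry no test.

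Genes of the iron regulon of the activator Aft1 rose in 8 of 19 cases and fell in 0, with a median of 0.30. The share called was 42.1%, beside 14.3% of all genes tested. FIT2, a mannoprotein of the cell wall that holds siderophores, had 449 to 655 RPKM in wild type and 1088 and 1095 RPKM in pus7D, a change of 1.05 (SE 0.19, adjusted p = 0.00048). Its relatives FIT3 and FIT1 rose by 0.81 (SE 0.15, adjusted p = 0.000805) and 0.94 (SE 0.23, adjusted p = 0.0075), and FIT1 did not pass without pus7D library 1 (adjusted p = 0.081) or library 2 (adjusted p = 0.075). The sulfur amino acid list, which stands beside the expressed MET17, had 2 of 18 genes higher and 2 lower (22.2% called) with a median of -0.01. Its member MET13, methylenetetrahydrofolate reductase, rose by 0.70 (SE 0.12, adjusted p = 0.000198) from 18.8 to 21.8 RPKM to 33.8 and 33.3 RPKM. Of 12 measured Msn2/4 stress genes 3 were higher and 1 lower (33.3% called). TSL1, of trehalose synthesis, was at 0.62 in footprints (SE 0.16, adjusted p = 0.012) and -0.05 in RNA. The call of TSL1 was lost without pus7D library 1 (adjusted p = 0.15) or library 2 (adjusted p = 0.067), and that of TPS1, at 0.23 (SE 0.064, adjusted p = 0.016), without library 1 (adjusted p = 0.27).

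In the proteasome 10 of 32 genes were higher and 7 lower, a share called of 53.1% with a median of 0.01, so that members moved both ways, such as PUP1 at 0.30 (SE 0.050) and RPN1 at -0.29 (SE 0.035). Ergosterol synthesis had 2 of 24 higher and 5 lower, with ERG26 at -0.49 (SE 0.047) and ERG13 at -0.46 (SE 0.045). Among 20 aminoacyl-tRNA synthetases 2 were higher and 4 lower, with the leucine enzyme CDC60 at -0.44 (SE 0.048) and the glutamine enzyme GLN4 at -0.35 (SE 0.040). Glycolysis had 0 of 17 higher and 2 lower, PFK1 at -0.24 (SE 0.028) and PFK2 at -0.27 (SE 0.036). The shares called were 29.2% in ergosterol synthesis, 30% among the synthetases, 11.8% in glycolysis and 8.33% in the mating list below, beside 14.3% of all genes tested. Hsf1 chaperones (1 of 24 higher, 1 lower), oxidative phosphorylation (3 of 34 higher, 2 lower), translation factors (1 of 40 higher, 3 lower) and histones (0 of 10 called) were near or under this background share. Of 52 other genes deleted elsewhere in the series 1 was higher and 5 lower, a share called of 11.5%, under that of all genes. Among them the wobble methyltransferase TRM9 was at -0.51 (SE 0.072, adjusted p = 2.7e-05). Where 1 of these 52 genes is deleted in a strain of the set, the shared spread of the fit includes the libraries that lack it. In the mating list 1 of 12 genes was lower, the pheromone receptor STE2 at -0.35 (SE 0.073, adjusted p = 0.0019), which did not pass without pus7D library 2 (adjusted p = 0.051).

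U2 carries the motif, and U2 works in splicing, so genes of the U2 particle and genes with introns were set side by side. Of 18 measured genes of the U2 particle and the prespliceosome 0 were called by limma, with a median of 0.03, and the values nearest to a call were CUS1 at 0.28 (SE 0.10, adjusted p = 0.069) and LEA1 at 0.31 (SE 0.12, adjusted p = 0.080). Of 89 ribosomal protein genes with an intron 1 was higher and 1 lower (2.25%), beside 0 higher and 2 lower of 48 without an intron (4.17%). RPS14B had -0.37 (SE 0.048) and RPL15B -0.41 (SE 0.074), but each has a copy, 92.6% and 93.3% identical, with which reads may be shared. Of 137 other genes with an intron 8 were higher and 9 lower (12.4%, beside 14.3% of all), with UBC4 at -0.43 (SE 0.0525).

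The tyrosine codon content of genes was set against their footprint change in each library. Over 4261 genes with R64 coding sequences, without PUS7, Spearman's rho across genes was -0.12 and -0.18 in the pus7D libraries, each against the mean of wild type. In the wild-type libraries, each against the other wild-type libraries, it ran from -0.078 to 0.13. The pus7D mean less the wild-type mean was -0.14, and both pus7D libraries lay below all 6 wild-type libraries, which gave an exact two-sided permutation p of 0.071, the smallest that 2 against 6 libraries allow. Over genes averaging at least 50 RPKM the difference was -0.16, with a permutation p of 0.14 under the same limit. Genes are not independent replicates and the size is small. In the 1066 genes richest in tyrosine codons (at least 4.05% of codons) the median log2 change was -0.0089 and -0.021 in the pus7D libraries, and in the 1073 poorest (at most 2.38%) it was 0.049 and 0.058.

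In RNA 11 of 4967 genes were above the range of the 4 wild-type libraries and at least 2-fold higher (0.221%), and 5 were below it and at least 2-fold lower (0.101%). The 11 included MET17, ARG1, YGL117W, ARG7, ARG4, SNZ1, TMT1, ARG5,6, ARO10 and FIT2, and the 5 were PUS7, PHO5, PTR2, PHO11 and PHO12. All 16 also passed the footprint test in the same direction. Of 304 genes called higher in footprints and measured in RNA, RNA was above the wild-type range in 257 (84.5%), beside 33.6% of all 4260 such genes. Of 305 called lower it was below the range in 248 (81.3%), beside 22.8%. With 1 RNA library there is no replicate check on these differences.

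The pus1D strain, which lacks the other pseudouridine synthase processed in this set, shares its wild-type libraries with pus7D, and was set against it directly. Between these strains 300 genes were higher in pus7D (6.98%) and 423 lower (9.84%), 723 in all (16.8%). With each library centred on its median the balance turned, with 8.49% higher and 7.88% lower. PUS1 had 64.4 and 67.1 RPKM in pus7D and 1.53 and 0.07 RPKM in pus1D. GCN4 had 29.8 and 27.2 RPKM in pus1D, within the wild-type range, and the difference between the strains was 2.28 (SE 0.12, adjusted p = 7.1e-12). Of the 42 Gcn4 targets 32 were higher in pus7D than in pus1D and 0 lower, with a median difference of 0.39 beside -0.0063 over all genes. Of the 16 Pho4 targets 0 were higher and 12 lower, PHO5 by -1.70 (SE 0.23, adjusted p = 1.6e-05), with PHO5 at 145 and 167 RPKM in pus1D. Of the 19 iron genes 9 were higher and 0 lower, FIT2 by 1.81, with 378 and 256 RPKM in pus1D. ARO10 had 13.1 and 14.3 RPKM in pus1D beside 16.1 and 21.8 RPKM in pus7D, a difference of 0.43 (SE 0.17) that did not pass (adjusted p = 0.081), and ACO1 had 662 and 531 RPKM beside 525 and 423 RPKM (-0.33, SE 0.13, adjusted p = 0.089). Neither result shows that the strains are alike in these genes. Fewer genes differed when 1 library was left out, 3.86% higher without pus7D library 2 and 3.79% higher and 4.72% lower without pus1D library 2. Among codons 53 of 183 values differed (29.0%). UAU in the A site was at -0.0037 and 0.0081 in pus1D, and differed by 0.26 (SE 0.022, adjusted p = 6.0e-09). GUC in the P site was at -0.489 and -0.555 in pus1D and at 0.11 and 0.087 in pus7D, a difference of 0.62 (SE 0.025).

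**Figure D5:**
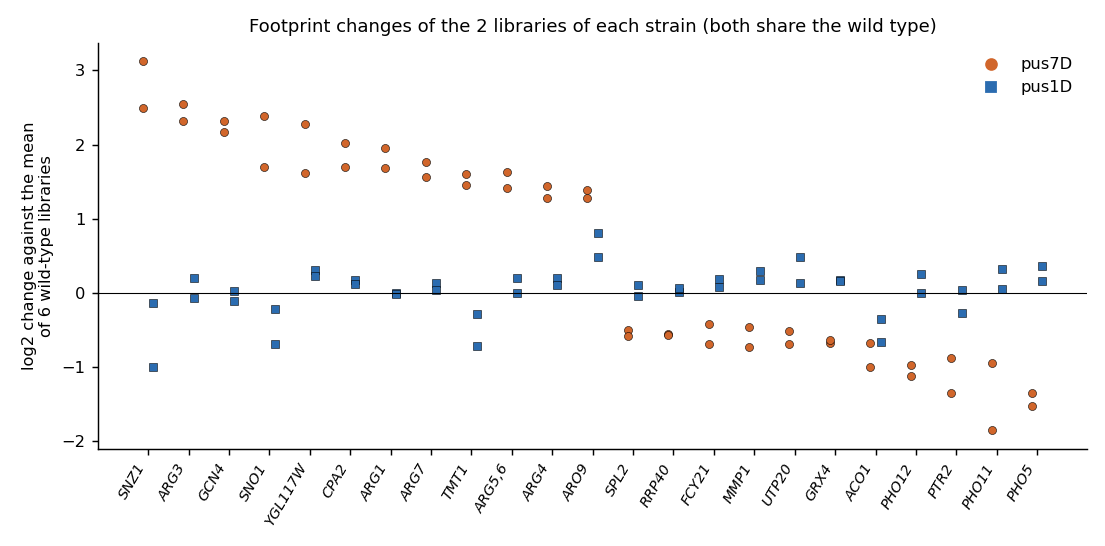
Log2 footprint change against the mean of 6 wild-type libraries for the 12 genes with the largest rise after MET17 and the 11 with the largest fall after PUS7, in the 2 libraries of pus7D and of pus1D. GCN4 and the ARG genes stand between 1.28 and 2.55 in pus7D, with means of -0.04 to 0.15 in pus1D, and ACO1 is below 0 in both strains.

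Against the mean of the 10 other deletion strains of the set, 1247 genes differed (29.0%), 514 higher and 733 lower in pus7D. With each library centred on its median the balance turned, to 731 higher and 584 lower. Without pus7D library 1 the higher genes were 5.58% of those tested and without library 2 5.63%. The footprint change of GCN4 against wild type was 2.24 in pus7D, 2.23 in elp3D, 2.27 in kti11D, 2.07 in elp1D, 2.93 in rit1D, 1.57 in urm1D, 1.01 in rtt10D, 0.29 in trm4D, 0.10 in trm732D, -0.04 in pus1D and 5.16 in trm7D. The change of ARG1 was 1.82 in pus7D, 6.17 in trm7D, 3.18 in rit1D, 1.07 in rtt10D, 0.54 in elp3D and 0.39 in elp1D. It was 0.14 in trm732D, 0.07 in trm4D, 0.01 in kti11D, -0.02 in pus1D and -0.03 in urm1D. These strains share their wild-type libraries with pus7D. ARG3 was 1.91 higher in pus7D than the mean of the other strains (SE 0.175, adjusted p = 4.5e-08), and the difference for PTR2 was -1.78 (SE 0.18, adjusted p = 1.6e-07). Of the 42 Gcn4 targets 17 were higher and 11 lower than in the mean of the other strains, with a median difference of 0.026 beside -0.011 over all genes. Of the 16 Pho4 targets 0 were higher and 4 lower (median -0.13), and PHO5 differed by -0.09 (SE 0.17, adjusted p = 0.72). Of the 12 aromatic amino acid genes 4 were higher and 4 lower, and of the 19 iron genes 9 were higher and 0 lower (median 0.29), FIT2 by 1.75 (SE 0.17, adjusted p = 1.3e-07). Among codons 41 of 183 values differed from that mean (22.4%), UAU in the A site by 0.28 (SE 0.016), and UAU in the A site of the other 20 libraries ran from -0.12 to 0.092, all under both pus7D libraries.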

How the data were processed

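Ribosome footprints and RNA of Saccharomyces cerevisiae were measured in pus7D (2 and 1 libraries) and wild type (6 and 4). Per the labels' protocols, footprints of RNase I-treated 80S monosomes and ribosomal RNA-depleted, fragmented RNA were sequenced. Per the submitters' processing notes, TopHat2 2.0.12, SAMtools and HOMER 4.6 were used with the sacCer3 build, and further settings are not given in the sources used here. The deposited RPKM values are the authors' normalized levels per gene. The authors' deposited ratio table gives footprints per RNA relative to wild type. The deposited codon table holds the authors' log2 change of codon frequency against wild type. Of its sample columns 296 were not used.

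The members and lists were chosen with earlier results of these data known. RPKM values were tested as log2(RPKM + 1) with limma 3.58.1 (trended variance, R 4.3.3) over the 28 footprint libraries of the set (wild type and 11 deletion strains), for 4300 genes averaging at least 10 RPKM, with Benjamini-Hochberg adjustment over all of them. The 183 codon values were fitted by limma without a trend. RNA and footprints per RNA, with 1 pus7D RNA library, were called at 2-fold and, for RNA, outside the wild-type range. Named genes are PUS7 and its neighbours, GCN4, all pseudouridine synthases and tyrosine genes, the 12 called genes with the largest rise and fall in each contrast, the 3 members of each list with the smallest p, and the 8 highest and lowest in RNA and footprints per RNA. ARG8, CPA1 and HIS4 were added after their values were seen, and 1 gene is not reported here. Tyrosine content was compared by exact permutation. The fits were tested on simulated data. Depth recovered from the values limits low genes most. Alternatives changed the pseudocount, the filter, the scaling, the wild-type libraries, the libraries left out and the block.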

Additional observations from a re-analysis of the deposited data

Results flagged for a closer look

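Of 170 groups of wild-type values examined, 14 had 1 library far from the rest, and chance gives about 1 in 20. In RNA, wild-type library 2 stood high for SSP2 (4.196 RPKM, others 3.062 to 3.161), ESA1 (30.56, others 26.73 to 27.32), HIS3 (60.96, others 53.97 to 54.71), ACO1 (473.9, others 339.7 to 354.1) and FIT1 (11.85, others 6.432 to 7.234). RNA library 3 stood low for GAR1 (161.9 RPKM, others 173.5 to 174.9). In footprints, wild-type library 3 stood high for MET17 (7.753 RPKM, others 0 to 0.509) and HOM2 (738.3, others 690.4 to 707.1). Library 5 stood low for ARO2 (417.1 RPKM, others 434.2 to 441.4) and NHP2 (394.9, others 432.4 to 449.3). Library 6 stood high for CPA1 (48.75 RPKM, others 42.74 to 44.56) and low for TSL1 (10.12, others 15.34 to 17.26) and TPS1 (123.5, others 140.6 to 149.5). At GAC in the P site, library 6 had a log2 codon value of 0.0244, others -0.0124 to 0.001.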

How the results depend on the processing

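Against wild type 7.19% of genes were higher and 7.12% lower. These shares were 3.08% and 3.55% with all wild-type footprint libraries of the series and 12.6% and 11.8% with a mean of at least 50 RPKM. Without a filter 4.50% were lower, and more genes were tested. Quantile normalization gave 5.67% higher and 8.88% lower. Leaving out 1 library gave 3.12 to 7.04% higher and 3.47 to 6.74% lower. The difference between libraries 1 and 2 had a correlation of 0.023 between pus7D and wild type. Wild-type libraries 1 and 2 lie in the same set of the split described above. This value therefore cannot show whether libraries pair across the split. Against the wild-type difference across it, the footprint differences of the strains had r = 0.125 to 0.24, with 0.137 in pus7D. A fit with the replicate number as a block gave 3.48% and 3.99%, but it holds only the libraries numbered 1 and 2. Without the block these libraries gave 3.20% and 3.85%. A fit added after seeing the data, with wild-type libraries 1 to 3 and library 1 of each strain as one block and the rest as the other, a split seen in the codon values and given by no label, gave 7.63% and 7.42% and kept 98.7% of the calls. Against pus1D the shares without a filter were 4.58% and 6.31%, and with 1 library left out 3.79 to 5.33% higher and 4.72 to 8.45% lower. Against the other strains 11.3% were lower without a filter, and leaving out 1 pus7D library gave 5.58 to 5.63% higher and 9.07 to 10.5% lower. Codons called were 44 with 8 libraries only, 13 with the number as a block, 8 with the same libraries without it, 26 with the added block (all 18 among them) and 7 to 16 with 1 library left out, and UAU and UAC in the A site passed in each of these fits. RNA gave 18 higher and 16 lower without a filter and 49 and 14 at 1.5-fold. Footprints per RNA gave 1 gene higher in the authors' table, 4 with a pseudocount of 0.1 and 1 at 50 RPKM, and 0 to 1 lower with 1 pus7D library left out. Of 62 named genes called, 54 passed in every fit without 1 library and 8 were lost without a pus7D library, 13 with all wild-type libraries, 3 with the number as a block and 1 with another scaling, filter or pseudocount. Among genes not called, the sign turned for CBF5 with quantile normalization (-0.031), for CBF5 (-0.12), ARO7 (0.087) and NHP2 (-0.069) with all wild-type libraries, and without 1 pus7D library for ARO7 (-0.068 to 0.040) and PUS3 (-0.037 to 0.16). Where no construction shows it, the cause was not tested.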
